A study of Mus musculus with 18 samples.

Results

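The chaperones described here are 10 genes of the HSP70 and HSP90 families, taken by symbol from the 22298 genes of the deposited mRNA table. All 10 were found, each in 1 row. They divide into 3 forms that are known for their expression in male germ cells (Hspa2, Hspa1l and Hspa4l) and 7 forms that are also used in somatic cells (Hspa4, Hspa5, Hspa8, Hspa9, Hsp90aa1, Hsp90ab1 and Hsph1). RNA of whole testis from adult C57BL/6 mice was sequenced in 3 wild-type libraries and 3 libraries of mice with a Taf7l knock-in allele. Taf7l is X-linked and encodes a germ-cell relative of a TFIID subunit. The series title speaks of a missense mutation, and the labels used here name neither the changed residue, the number of mice per library nor the founder line. Both genotypes were on the same strain, with no treatment named. The other 12 of the 18 labelled samples, pachytene spermatocytes and round spermatids of the same genotypes (3 of each), were not analysed here. The labels do not tie each library to its own animal, and a p-value here reflects library-to-library spread that may be technical.

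HSP70 proteins bind exposed hydrophobic stretches of other proteins and release them in a cycle driven by ATP, with J-domain proteins as partners that start the cycle and exchange factors that reset it. HSP90 proteins act later, on clients that are close to their folded state, and work with a set of co-chaperones. Male germ cells make HSP70 forms of their own: HSPA2 appears in meiotic spermatocytes, where it is needed for disassembly of the synaptonemal complex and for the activity of CDK1, and HSPA1L appears in spermatids. HSPA4, HSPA4L and HSPH1 form the HSP110 branch, whose members act as exchange factors for the other HSP70 proteins.

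Sequence around a listed start of transcription was searched for stress response motifs in germ-cell and somatic forms. RefSeq windows on GRCm38.p6, from 250 bases before to 50 bases after the start of transcription, were matched by symbol for 6 of the 10 genes (Hspa1l, Hspa2, Hspa4l, Hspa4, Hspa5 and Hsph1). They were searched on both strands for the heat shock element (GAANNTTC or TTCNNGAA), the endoplasmic reticulum stress response element and the CCAAT box (CCAAT, which reads ATTGG on the other strand). A CCAAT box is part of each stress response element, so these matches overlap. Here 5 windows are printed 5′ to 3′ along the gene, the germ-cell forms because they are the contrast of interest and Hspa5 and Hsph1 because they hold the stress elements. Capitals mark the matches.
Hspa2: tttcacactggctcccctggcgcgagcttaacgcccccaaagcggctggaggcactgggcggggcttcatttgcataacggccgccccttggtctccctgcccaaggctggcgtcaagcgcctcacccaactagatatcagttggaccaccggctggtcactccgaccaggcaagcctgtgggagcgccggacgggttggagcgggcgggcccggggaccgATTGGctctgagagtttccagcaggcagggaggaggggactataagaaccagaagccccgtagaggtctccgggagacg
Hspa1l: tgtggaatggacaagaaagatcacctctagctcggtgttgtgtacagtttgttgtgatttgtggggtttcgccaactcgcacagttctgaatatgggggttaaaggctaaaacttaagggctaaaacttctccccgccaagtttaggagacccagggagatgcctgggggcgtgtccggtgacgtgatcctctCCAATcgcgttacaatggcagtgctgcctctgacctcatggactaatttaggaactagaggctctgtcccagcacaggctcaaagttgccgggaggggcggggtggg
Hspa4l: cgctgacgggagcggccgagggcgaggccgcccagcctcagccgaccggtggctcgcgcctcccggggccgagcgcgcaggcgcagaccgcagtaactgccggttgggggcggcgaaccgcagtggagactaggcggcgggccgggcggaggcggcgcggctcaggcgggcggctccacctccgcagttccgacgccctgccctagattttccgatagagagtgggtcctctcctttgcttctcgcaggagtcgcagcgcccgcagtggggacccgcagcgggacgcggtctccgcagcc
Hspa5: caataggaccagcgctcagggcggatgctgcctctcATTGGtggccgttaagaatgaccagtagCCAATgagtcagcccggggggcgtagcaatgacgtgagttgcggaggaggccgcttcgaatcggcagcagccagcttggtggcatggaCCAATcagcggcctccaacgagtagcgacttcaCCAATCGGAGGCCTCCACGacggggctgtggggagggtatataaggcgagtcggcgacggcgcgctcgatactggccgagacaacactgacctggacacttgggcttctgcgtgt
Hsph1: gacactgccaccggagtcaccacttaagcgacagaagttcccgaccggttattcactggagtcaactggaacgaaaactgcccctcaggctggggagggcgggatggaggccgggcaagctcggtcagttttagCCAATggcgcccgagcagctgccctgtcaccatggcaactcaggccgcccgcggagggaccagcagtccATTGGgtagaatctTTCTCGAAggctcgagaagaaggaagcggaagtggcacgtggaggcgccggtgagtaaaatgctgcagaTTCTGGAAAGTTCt
The windows lie at chr12:76404120-76404419 for Hspa2, chr17:34972453-34972752 for Hspa1l, chr3:40745363-40745662 for Hspa4l and chr2:34771840-34772139 for Hspa5, all on the plus strand, and at chr5:149636287-149636586 on the minus strand for Hsph1, the first of 2 windows listed for that gene. The start sites of Hspa1l, Hspa4 and Hspa5 are the 5′ ends of their annotated genes. Those of Hspa2 and Hspa4l lie 558 and 1113 bases inside theirs, so that both windows fall wholly within the gene and are not the DNA ahead of it, and that of Hsph1 lies 162 bases inside.

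None of the 3 germ-cell windows held the letters of a heat shock element. The Hspa2 window held 1 CCAAT box, as ATTGG from -29 to -25 relative to the start site, and the Hspa1l window held 1, from -57 to -53. The Hspa4l window held none of the motifs, nor did that of Hspa4. In Hspa5, which encodes the chaperone BiP of the endoplasmic reticulum, a stress response element lay from -65 to -47 (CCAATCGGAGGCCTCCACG). In Hsph1 heat shock elements lay from -33 to -26 (TTCTCGAA) and from 37 to 44 (TTCTGGAA), the latter overlapping a match from 42 to 49 (GAAAGTTC). Of 32851 windows of this length in the table, 15.1% held a heat shock element, 0.119% a stress response element and 37.4% a CCAAT box. With 15.1% of windows holding a heat shock element, its absence from 3 windows does not set the germ-cell forms apart. The matches describe these letters and were not tied to binding.

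Levels per length were high for most of these chaperones in the testis. FPKM, fragments scaled by gene length and by library size, placed Hsp90aa1 first, at 558.7, 563.9 and 582.4 in the wild-type libraries and 612.4, 566.0 and 542.2 in knock-in testis. Hsp90aa1 encodes the alpha form of cytosolic HSP90, which male meiosis requires. It ranked at 52 of all 22298 genes by mean FPKM. Hspa2 came next, with 484.8, 475.8 and 481.4 FPKM in wild-type testis and 515.8, 532.4 and 529.5 in knock-in testis, at rank 61. The germ-cell forms Hspa1l (mean 328.3 FPKM over the 6 libraries, rank 123) and Hspa4l (243.7, rank 232) followed, ahead of the somatic HSP70 genes. Hspa8, the constitutive cytosolic HSC70 of most tissues, had a mean of 194.8 FPKM, Hspa5 171.4 and Hsp90ab1, the beta form of HSP90, 131.4. The mitochondrial Hspa9 (mortalin) had 94.3 FPKM and Hspa4 54.3. Hsph1 was far below the rest at 3.56 FPKM, rank 9302.

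In this order each gene exceeded the next in all 6 libraries, except that Hspa8 exceeded Hspa5 in 5 of 6. Their ranges overlapped, since the lowest Hspa8 value was 170.3 and the highest Hspa5 value 180.7 FPKM. Hsp90aa1 stood only 1.13-fold above Hspa2, with a lowest value of 542.2 against a highest of 532.4. The step from Hspa4 to Hsph1 was 15.3-fold. The 10 genes together took between 0.734% and 0.769% of the counts of a library.

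**Figure D1:**
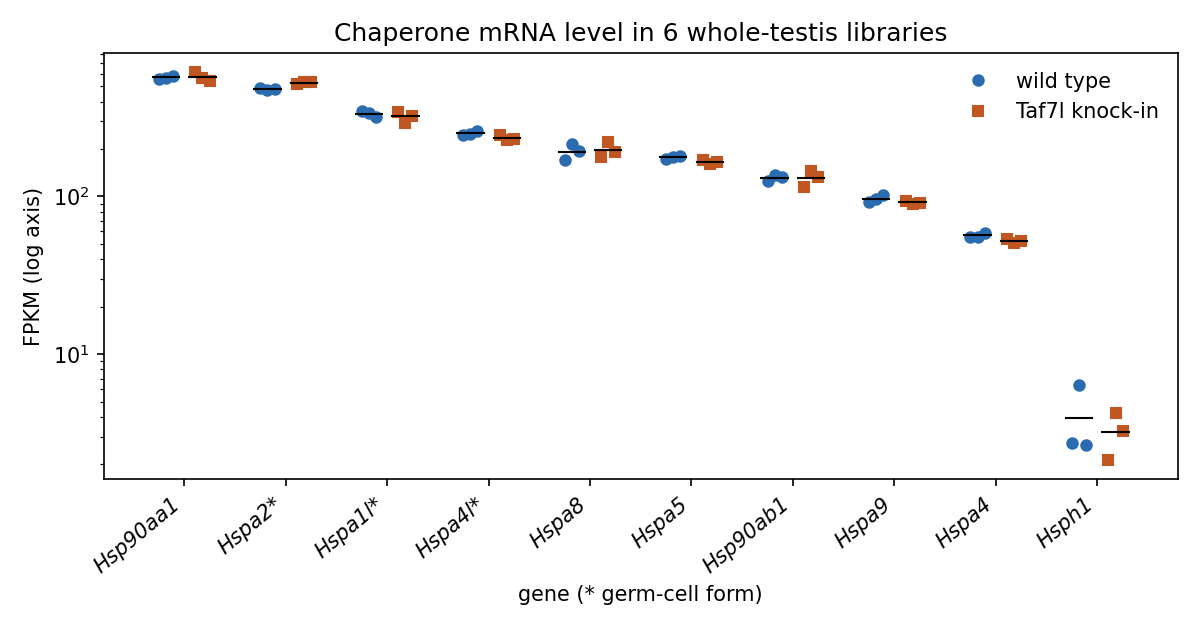
Deposited FPKM (log axis) of each chaperone gene in the 3 wild-type (circles) and 3 knock-in (squares) libraries, with bars at the genotype means. The germ-cell forms, marked with asterisks, take places 2 to 4, and Hsph1 lies at 3.56 FPKM on average, below all other members.

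None of the 10 chaperone genes was called changed between the genotypes by edgeR's quasi-likelihood test at an adjusted p under 0.05, where 0.982% of the 15787 genes tested were. All 10 passed the filter on low counts. At an unadjusted p under 0.05 there was 1 of 10, Hspa2, against 12.9% of all genes. DESeq2 called 0 of the 10, and so did limma on FPKM. Limma on quantile-normalized values called Hsp90aa1 (log2 fold change -0.23, adjusted p = 0.0356). That fit called 264 of all genes, against 155 in the main fit. Of the members 3 lay above 0 and 7 below, with a median log2 fold change of -0.05 and a range from -0.13 to 0.14. Over all genes tested the median was 0.00, with 7986 above 0 and 7801 below. In whole tissue, fewer cells of a type and less RNA per cell cannot be told apart.

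Among the germ-cell forms Hspa2 is the one whose libraries did not overlap. Hspa2 (ENSMUSG00000059970, GRCm38 chromosome 12 from 76403812 to 76406938) had 1623, 1514 and 1558 CPM in the wild-type libraries, counts scaled to the TMM library size, and 1721, 1698 and 1745 CPM in knock-in testis. Every knock-in library lay above every wild-type one, as was so in the same direction for 10.1% of all genes tested, in the other for 8.41% and in either for 18.5%. The level was 1565 ± 54.5 CPM in wild-type testis and 1721 ± 23.2 CPM in knock-in testis (SD, n = 3 each), and the 95% interval of the fitted difference ran from 1.02% to 19.8% higher. On the log2 scale the difference was 0.14 ± 0.06 (SE) and it did not pass (edgeR, adjusted p = 0.328). The authors' deposited table gives a log2 ratio of 0.13 and an adjusted p of 0.214 for Hspa2. The gene overlaps the lncRNA gene 4930426I24Rik. The library kit keeps strand, per the labels, but whether counting used it is not given in the sources used here. Sums of 6 Leydig cell markers were also higher in every knock-in library (1232 to 1247 CPM against 1044 to 1199). So were those of 6 peritubular myoid markers (230 to 263 against 194 to 222) and, among germ cells, of 6 spermatogonial markers (619 to 652 against 567 to 612). Most of the spermatogonial sum was Dmrtb1, with a mean of 452.5 CPM in wild-type and 507.5 CPM in knock-in testis. Of the 6 spermatogonial markers 1, Dmrtb1, had a fitted value above 0 and 5 lay below. Of the 6 Leydig markers 5 lay above 0, and 1, Cyp11a1, had libraries that did not overlap. The sums of 10 meiotic prophase markers overlapped, at 6625 to 7710 CPM in knock-in and 7322 to 8042 in wild-type testis. So did those of 8 round spermatid markers (1243 to 1321 and 1166 to 1305). The sums of 8 elongating spermatid markers, 13032 to 15729 and 13344 to 15503, overlapped as well. Sertoli, macrophage, endothelium and epididymis sums overlapped too. The part of all these marker lists in the Hspa2 values was not tested.

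The other germ-cell forms had fitted values below 0. Hspa1l (ENSMUSG00000007033, chromosome 17 from 34972703 to 34979228) had 1147, 1050 and 1008 CPM in wild-type testis and 1128, 920 and 1050 CPM in knock-in testis. The genotypes overlapped, and the lowest value was that of knock-in library 2. Its log2 fold change was -0.05 ± 0.08 (SE), with an interval from -0.23 to 0.13 (edgeR, adjusted p = 0.866). Hspa4l, the germ-cell member of the HSP110 branch (ENSMUSG00000025757, chromosome 3 from 40744500 to 40796103), had 854, 822 and 868 CPM in wild-type testis and 860, 773 and 810 CPM in knock-in testis. Here too the genotypes overlapped and knock-in library 2 was lowest, and the log2 fold change was -0.06 ± 0.06 (SE; edgeR, adjusted p = 0.757). The germ-cell forms thus did not share a direction, and their median log2 fold change was -0.05.

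Of the cytosolic somatic forms, Hspa8 (ENSMUSG00000015656, chromosome 9 from 40801276 to 40805202) had 422, 490 and 468 CPM in wild-type testis and 440, 514 and 462 CPM in knock-in testis. The libraries of a genotype were farther apart than the genotype means of 459.8 ± 34.9 and 471.7 ± 38.0 CPM (SD, n = 3 each). Its fitted log2 value was 0.04 ± 0.08 (SE), with an interval from -0.13 to 0.21 (edgeR, adjusted p = 0.896). Hspa4, the more widely expressed relative of Hspa4l (ENSMUSG00000020361, chromosome 11 from 53259814 to 53300479), had 262, 253 and 266 CPM in wild-type testis and 263, 238 and 255 CPM in knock-in testis. Its genotypes overlapped, and the fitted log2 difference was -0.05 ± 0.06 (SE; edgeR, adjusted p = 0.817). Hsph1, the inducible HSP110 member (ENSMUSG00000029657, chromosome 5 from 149616843 to 149636498), was measured from 147 to 215 counts per library. That gave 9.45, 8.39 and 10.2 CPM in wild-type testis and 8.09, 9.52 and 10.1 CPM in knock-in testis, ranges that overlapped almost fully. Its log2 interval ran from -0.32 to 0.30, the widest of the 10.

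The organelle forms lay slightly below 0. Hspa5 (ENSMUSG00000026864, chromosome 2 from 34772090 to 34776529) had 609.8, 609.5 and 627.7 CPM in wild-type testis and 617.9, 558.1 and 590.5 CPM in knock-in testis. Knock-in library 1 lay within the wild-type range and the other two below it, and the log2 fold change was -0.06 ± 0.06 (SE; edgeR, adjusted p = 0.713). Part of the gene is shared with Rabepk. Hspa9 (ENSMUSG00000024359, chromosome 18 from 34937414 to 34954351) had 373, 372 and 399 CPM in wild-type testis and 379, 345 and 364 CPM in knock-in testis, again overlapping (log2 fold change -0.07 ± 0.06 SE; edgeR, adjusted p = 0.676).

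The HSP90 genes had fitted values of opposite sign. Hsp90aa1 (ENSMUSG00000021270, chromosome 12 from 110691036 to 110696395) had 2002, 1893 and 2026 CPM in wild-type testis and 1979, 1664 and 1756 CPM in knock-in testis. Knock-in libraries 2 and 3 lay below all wild-type libraries and library 1 among them. The log2 fold change was -0.13 ± 0.07 (SE), with an interval from -0.30 to 0.03 (edgeR, adjusted p = 0.499). Hsp90ab1 (ENSMUSG00000023944, chromosome 17 from 45567778 to 45573261) had 370, 389 and 390 CPM in wild-type testis and 375, 451 and 418 CPM in knock-in testis. Here libraries 2 and 3 of the knock-in lay above all wild-type libraries, and library 1 again among them. The log2 fold change was 0.11 ± 0.07 (SE), with an interval from -0.05 to 0.27 (edgeR, adjusted p = 0.563). On the FPKM scale neither difference was seen: the log2 ratio of the mean FPKM was 0.01 for Hsp90aa1 and -0.01 for Hsp90ab1.

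**Figure D2:**
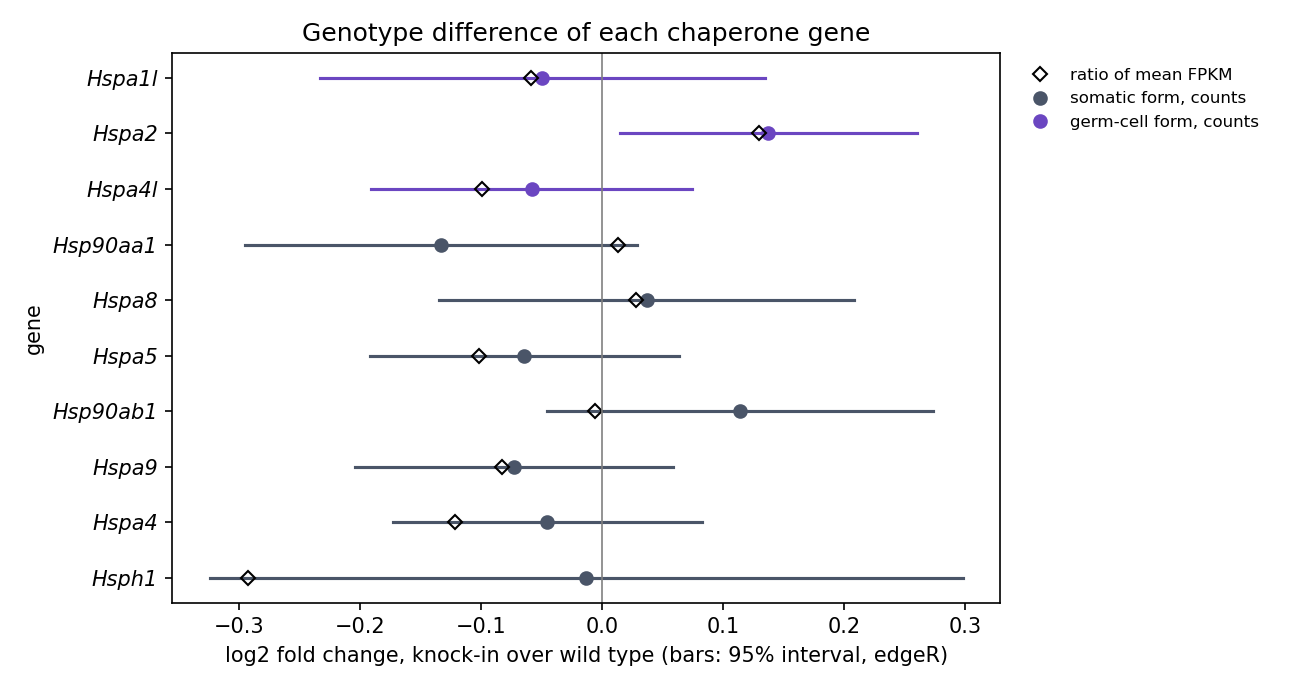
Log2 fold change of each chaperone gene, knock-in over wild type, from edgeR on counts (filled points with 95% intervals) and as the ratio of mean deposited FPKM (open diamonds). Only the interval of Hspa2 lies above 0, and the diamonds of Hsp90aa1 and Hsp90ab1 sit near 0 while their points lie at -0.13 and 0.11.

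Germ-cell and somatic forms did not separate by genotype. The median log2 fold change was -0.05 for the 3 germ-cell forms and -0.05 for the 7 somatic forms, and of each group a minority lay above 0 (1 of 3 and 2 of 7). The germ-cell forms' share of the counts of all 10 genes was 47.2%, 45.8% and 45.1% in the wild-type libraries and 47.7%, 47.3% and 48.3% in knock-in testis. The groups did not overlap, though wild-type library 1 and knock-in library 2 differed by less than the spread within either genotype. The genotype means differed by 1.76 percentage points, with an SD of 1.11 in wild-type and 0.513 in knock-in testis (n = 3 each), and no test was made since the members were chosen with results known. The summed CPM of the germ-cell forms overlapped, at 3387 to 3623 in wild-type and 3391 to 3708 in knock-in testis. That of the somatic forms overlapped too (4015 to 4186 and 3780 to 4061). Hspa2 was the only germ-cell form with a fitted value above 0. Hsp90aa1, the most abundant somatic form, had a mean of 1973 CPM in wild-type and 1799 CPM in knock-in testis. As a share of summed FPKM the values overlapped, and the means differed by 0.635 points. Hspa2 had 1.42, 1.44 and 1.54 counts for each count of Hspa1l in wild-type testis and 1.53, 1.85 and 1.66 in knock-in testis. The ranges of this ratio met, with wild-type library 3 slightly above knock-in library 1.

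Single libraries stood at the ends of the range for most members. Knock-in library 2 had the lowest CPM of the 6 libraries for 6 of the 10 genes (Hspa1l, Hspa4l, Hspa4, Hspa5, Hspa9 and Hsp90aa1) and the highest for Hspa8 and Hsp90ab1. Wild-type library 3 was highest for 6 genes. In knock-in library 2 the summed level of 10 meiotic prophase markers was 6625 CPM, the lowest of the libraries, against 7249 and 7710 CPM in the other knock-in libraries and 7322 to 8042 in wild-type testis. The sum of 8 Sertoli cell markers was highest there, at 1375 CPM, against 1026 to 1208 in all other libraries, and so was the sum of 6 peritubular myoid markers, at 263 CPM against 194 to 256. None of these markers was at 0 in all libraries, and their part in the chaperone values was not tested. Without knock-in library 2 the fitted log2 values were 0.03 for Hspa1l and -0.03 for Hspa8, each with the opposite sign. None of the 10 genes was called when any 1 of the 6 libraries was left out.

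**Figure D3:**
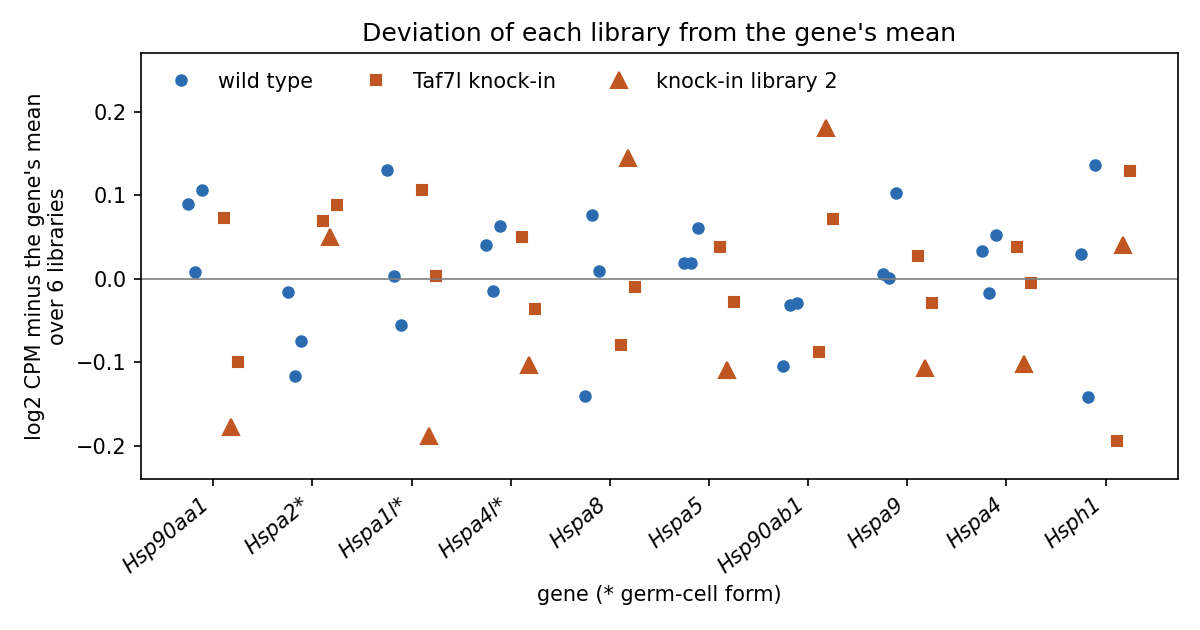
Deviation of log2 CPM in each library from the mean of the gene over the 6 libraries, for wild-type libraries (circles) and knock-in libraries (squares, with library 2 as triangles). Triangles lie lowest for 6 genes and highest for Hspa8 and Hsp90ab1, and Hspa2 has all knock-in points above all wild-type points.

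Counts and FPKM are linked by a gene length, which can be read back from them. The length implied by a count and its FPKM, after removal of a constant per library, was the same in every library to within 0.00891% for Hspa2, Hspa1l and Hspa9. For the other 7 members it differed between libraries by more than 1%, and for 5 of these the genotypes did not overlap, against 17% of the 8784 genes with varying length. For Hsp90aa1 it was 3491, 3440 and 3506 bases in wild-type testis and 3159, 3005 and 3206 bases in knock-in testis. All knock-in values were lower, by 10.3% in the fit, a log2 ratio of -0.16 ± 0.03 (SE; limma, adjusted p = 0.231). For Hsp90ab1 it was 2893, 2915 and 2951 bases in wild-type testis and 3183, 3170 and 3124 bases in knock-in testis, all higher, a log2 ratio of 0.11 ± 0.02 (SE; limma, adjusted p = 0.177). The implied length was also higher in every knock-in library for Hspa4 (mean 4609 and 4830 bases), Hspa4l (3372 and 3446) and Hspa5 (3478 and 3546).

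No gene's implied length was called changed by limma, 0% of those tested, while 9.49% of genes and 3 of these 7 members (Hsp90aa1, Hsp90ab1 and Hspa4) had an unadjusted p under 0.05. How the authors set the length of a gene in each library is not given in the sources used here, so the quantity is a property of the deposited values and was not tied to particular transcripts. Hsph1 had the least stable value, from 1346 to 3884 bases between wild-type libraries 2 and 3, so its FPKM is uncertain.

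**Figure D4:**
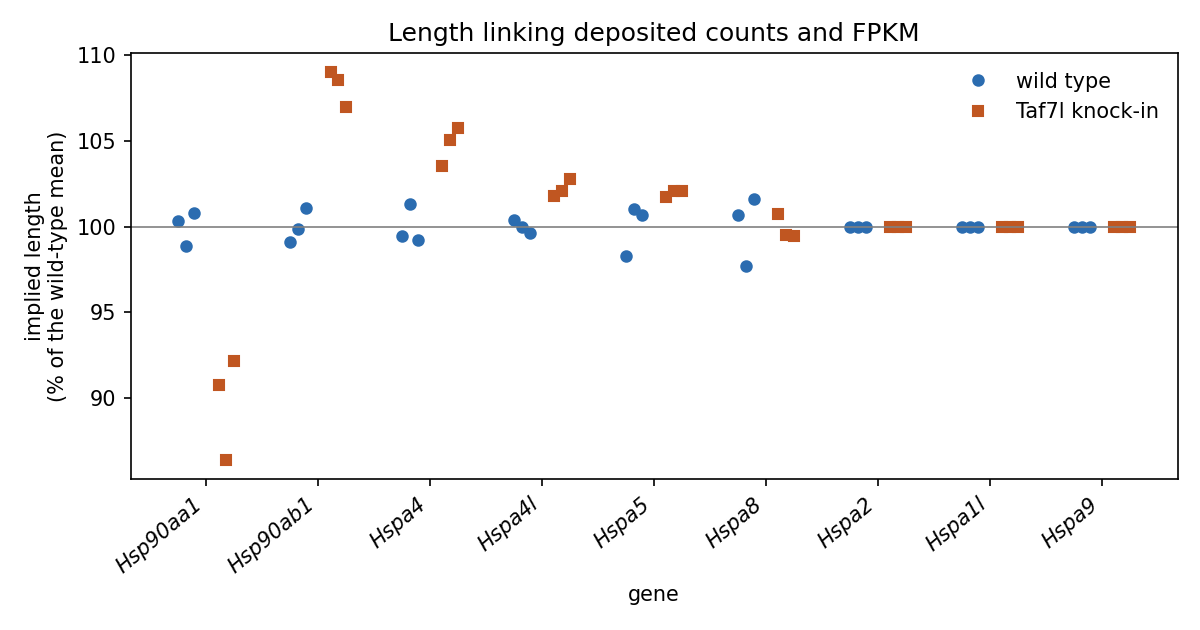
Gene length implied by deposited counts and FPKM, as a percentage of the wild-type mean, in wild-type (circles) and knock-in (squares) libraries. Hsp90aa1 lies below and Hsp90ab1 above 100% in every knock-in library, the last 3 genes do not vary, and Hsph1, from 1346 to 3884 bases, is left out for scale.

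Noncoding transcripts with a member's symbol were listed for Hspa4 (1), Hspa8 (3) and Hsph1 (1), and 3 of the 5 passed the filter. None was called by edgeR, where 0.0968% of 9301 transcripts were, 0.043% as lower in knock-in testis, and 1 of the 3 had an unadjusted p under 0.05, against 8.97% of all. The Hspa4 transcript ENSMUST00000151854 was counted 2845, 2618 and 2802 times in wild-type testis and 2346, 2095 and 2377 times in knock-in testis. Its level was 1981, 1866 and 2070 CPM of the noncoding table in wild-type testis and 1655, 1472 and 1476 CPM in knock-in testis, so that every knock-in library was lower. Of all transcripts tested 7.62% had each knock-in library lower, and 16% did not overlap in either direction. The log2 fold change was -0.36 ± 0.07 (SE), with an interval from -0.52 to -0.20 (edgeR, unadjusted p = 0.000860, adjusted p = 0.128). DESeq2 called this transcript (log2 -0.37, adjusted p = 0.00123), as did edgeR without the filter on low counts (adjusted p = 0.0492). These fits called 110 and 129 of all transcripts, against 9 in the main fit. It was not called with any 1 library left out (edgeR, adjusted p from 0.158 to 0.323) or with the replicate block (edgeR, adjusted p = 0.336). The authors' deposited table lists it at a log2 ratio of -0.38 and an adjusted p of 0.000910.

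The Hspa4 coding gene did not move alongside, at -0.05 ± 0.06 (SE) on the log2 scale. Counts of the noncoding transcript amounted to 59.3%, 54.6% and 60.0% of those of the coding gene in wild-type testis and to 49.1%, 45.4% and 43.8% in knock-in testis. How reads shared by the transcript and the gene were counted is not given, so the value of either is uncertain. For Hspa8, ENSMUST00000153847 had 431, 691 and 569 counts in wild-type testis and 477, 643 and 553 in knock-in testis, with library 2 highest in each genotype (log2 fold change -0.10 ± 0.19 SE; edgeR, adjusted p = 0.916). ENSMUST00000117870, also of Hspa8, had 180, 184 and 93 counts against 157, 202 and 247 (log2 0.32 ± 0.25 SE; edgeR, adjusted p = 0.768). The remaining transcripts held 4 counts or fewer in all.

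**Figure D5:**
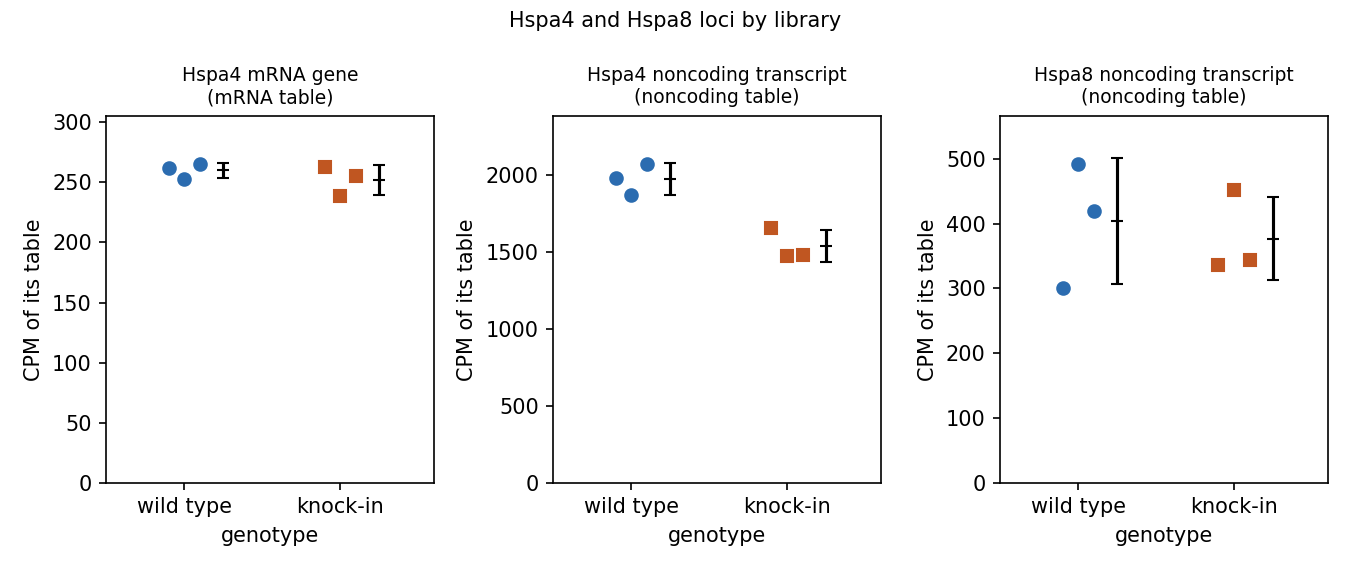
CPM by library of the Hspa4 coding gene, the Hspa4 noncoding transcript and the more abundant Hspa8 noncoding transcript, with mean ± SD beside the points (n = 3 each); each panel is scaled to its own table. The Hspa4 noncoding transcript is at 1866 to 2070 CPM in wild-type testis and 1472 to 1655 in knock-in testis, without overlap, while the other panels overlap.

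Circular RNAs came from 3 of the 10 genes and were rare. Hspa4l gave 8 circles with 54 back-splice counts over the 6 libraries, 25 in wild-type testis and 29 in knock-in testis. The most frequent, from 40750675 to 40781697 on chromosome 3 with a spliced length of 1705 bases, had 4, 0 and 2 counts in wild-type testis and 8, 2 and 1 in knock-in testis. A circle of Hspa4 (chromosome 11 from 53280468 to 53289164, 743 bases spliced) was singled out after its values were seen. Its counts were 1, 3 and 3 in wild-type testis and 0 in each knock-in library. It had an unadjusted p of 0.0192 and was not called (edgeR, adjusted p = 0.979). The Hspa5 circle of 159 bases, in a gene that overlaps Rabepk, is annotated as antisense, with 7 counts in wild-type testis and 5 in knock-in testis. Of 3887 circles tested 0% were called, 4.91% had an unadjusted p under 0.05, and DESeq2 called 0. Hspa2 gave none.

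Partners of these chaperones were taken from 6 lists with 75 tested genes, of which 3 were called, all higher in knock-in testis and all HSP90 co-chaperones. The background for genes called higher was 0.88%. Nudc, a chaperone-associated regulator of dynein, had 37.0, 40.5 and 40.6 CPM in wild-type testis and 53.6, 61.3 and 57.5 CPM in knock-in testis. Its libraries did not overlap, and it rose by 0.55 ± 0.08 on the log2 scale (SE; edgeR, adjusted p = 0.0155). Stip1, the adaptor HOP that holds HSP70 and HSP90 together, had 96.1, 96.9 and 100.3 CPM in wild-type testis and 116.4, 127.7 and 127.2 CPM in knock-in testis. It rose by 0.34 ± 0.06 on the log2 scale (SE; edgeR, adjusted p = 0.0346). Cdc37, the adaptor that brings kinases to HSP90, was scarce, at 10.9, 8.97 and 9.04 CPM in wild-type testis and 14.8, 14.4 and 15.3 CPM in knock-in testis. It rose by 0.62 ± 0.12 on the log2 scale (SE; edgeR, adjusted p = 0.0473). With 1 library left out at a time, Nudc was called in 2 of 6 fits (edgeR, adjusted p from 0.0244 to 0.0950), Stip1 in 1 (0.0390 to 0.179) and Cdc37 in 0 (0.0547 to 0.202), and all 3 kept their sign. Over all 16 alternative fits Nudc was called in 12, Stip1 in 9 and Cdc37 in 5. DESeq2 called all 3, where 2.91% of genes were called. Stip1 was lost with limma on log2(FPKM + 0.1) and log2(FPKM + 1) (adjusted p = 0.0610 and 0.0545). Cdc37 was lost in edgeR with upper-quartile scaling (adjusted p = 0.0591), the length trend removed (0.0609), the replicate block (0.0546) or both of the latter (0.0636), and in limma with quantile normalization (0.0507). The Leydig, myoid and spermatogonial marker sums given beside Hspa2 were higher in the same libraries, the last of them made up mostly of Dmrtb1. The meiotic prophase and spermatid sums overlapped. The part of these sums was not tested.

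The remaining HSP90 co-chaperones, 24 of 27 tested, did not pass in edgeR, and DESeq2 added 1 lower call, Unc45a, a myosin co-chaperone, with 0.564% of all genes called lower by that tool. The 27 had a median log2 fold change of 0.01, 14 above 0 and 13 below. The most abundant were the immunophilin gene Fkbp4 (651.2 and 699.5 CPM in wild type and knock-in, log2 0.10 ± 0.06 SE) and Ptges3, which encodes p23 (307.5 and 287.5 CPM, log2 -0.10 ± 0.07 SE). Of the HSP70 exchange factors and cofactors 0 of 14 were called by edgeR, with 2 at an unadjusted p under 0.05, and DESeq2 called 1 higher, Bag1, against 12.9% and 2.35% of all genes. Unc45a and Bag1 are named because of these counts, after their values were seen. Bag6, which stabilizes HSPA2 in germ cells, had 1089 and 1091 CPM and Bag5 846.3 and 813.4 CPM, with log2 fold changes of 0.00 ± 0.06 and -0.06 ± 0.07 (SE). Bag3, singled out after its values were seen, was counted 0, 580 and 0 times in wild-type testis and 373, 660 and 553 times in knock-in testis. It was at 0 in wild-type libraries 1 and 3 only. Its standard error was 1.09 on the log2 scale and it was not called (edgeR, adjusted p = 0.670).

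No gene was called by edgeR among 9 other HSP70 and HSP90 genes, 5 tested heat shock factors, 8 tested small heat shock proteins or 12 HSPA2 partners and clients, with 1, 2, 0 and 5 genes at an unadjusted p under 0.05. The share over all genes was 12.9%. DESeq2 called 0 in the first 3 of these lists and 2 higher, Tnp1 and Tnp2, in the last, where it called 2.35% of all genes higher. Hyou1 and Hsp90b1, chaperones of the endoplasmic reticulum, had log2 fold changes of -0.12 ± 0.05 and -0.06 ± 0.06 (SE). The germ-cell factor gene Hsf5 was the most abundant heat shock factor (311.5 and 308.1 CPM, log2 -0.02 ± 0.08 SE), ahead of Hsfy2 (98.8 and 91.8 CPM, log2 -0.10 ± 0.09 SE). Small heat shock proteins were led by Odf1 of the sperm tail (1603 and 1569 CPM, log2 -0.03 ± 0.06 SE) and the testis form Hspb9 (518.5 and 529.3 CPM, log2 0.03 ± 0.07 SE). Among HSPA2 partners the genes of the transition proteins, which replace histones in spermatids, led, with Tnp1 at 612.3 and 882.5 CPM (log2 0.53 ± 0.12 SE; edgeR, adjusted p = 0.0859) and Tnp2 at 631.3 and 829.0 CPM (log2 0.39 ± 0.12 SE; edgeR, adjusted p = 0.202). Tnp1 and Tnp2 are also among the 8 elongating spermatid markers, of which 5 lay above 0 and 3 below. Of these 8, edgeR called 2 higher, against 0.88% of all genes, and neither is on the partner list. They were Prm2 (log2 0.53 ± 0.09 SE; edgeR, adjusted p = 0.0289) and Smcp (log2 0.40 ± 0.07 SE; edgeR, adjusted p = 0.0307). The inducible Hspa1a and Hspa1b, chosen here after their values were seen, held 79 to 169 counts per library. They are near-identical copies and their single-gene values are uncertain.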

How the data were processed

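Whole-testis RNA of 3 wild-type and 3 Taf7l knock-in libraries was read from 3 deposited tables. Per the file headers, the authors deposited whole-number counts per mRNA gene, noncoding transcript and circle, FPKM per library for genes, and their own log2 ratio and adjusted p-value. Build mm10 is named in the processing notes of the submitters. The sources used here do not state aligner, counter, annotation or strand use. Depth was 17431309 to 21446420 counts per library for 22298 genes, 1384224 to 1647421 for 33433 noncoding transcripts and 14381 to 20127 for 7391 circles, so values for circles are the least precise. The common coefficient of variation between libraries of a genotype, beyond counting error, was 11.1% over genes and may be technical in part. No library repeated another, since chi-square per degree of freedom within a genotype was 5.42 to 10.4.

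Counts were tested in R 4.3.3 by the quasi-likelihood test of edgeR 4.0.16, with limma 3.58.1 for other values (TMM, filterByExpr with a minimum count of 10 and total of 15, Benjamini-Hochberg adjustment over all features tested, calls at 0.05), and circles above 0 in at least 3 libraries likewise. The standard error was derived from the quasi-likelihood F. Implied length was the count divided by FPKM and by the library's count total in the table, scaled by a constant per library, and was tested with limma in genes of at least 1 FPKM in each library and a range over 1%. This measure was added after the data were seen. Members and lists were chosen with earlier results of these data known. Named partners were those called and the 2 most abundant of each list. Alternatives were DESeq2 1.42.0, upper-quartile and quantile scaling, no filter, leaving out each library, a replicate block, removal of the length trend and limma on log2 FPKM with a pseudocount of 0.1 or 1. The edgeR and limma fits were tried on simulated data with planted changes larger than those of the members. That trial does not tell how often differences as small as theirs would be called. Gene positions came from RefSeq on GRCm38.p6, matched by symbol for all 10 genes.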

Additional observations from a re-analysis of the deposited data

How the results depend on the processing

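Of 16 alternative fits, 15 called 0 of the 10 chaperone genes. Limma on quantile-normalized values called 1, Hsp90aa1 (log2 -0.23). The number of all genes called, 155, was 460 with DESeq2, 264 with quantile scaling, 236 and 251 with limma on FPKM at a pseudocount of 0.1 and 1, 327 at 0.1 with FPKM of at least 1, 84 with the length trend removed, and 11 to 125 without 1 library (74, 32 and 20 without wild-type libraries 1, 2 and 3, and 11 without knock-in library 3). Calls higher in knock-in testis made up 89.7% of the 155 and 79.2% to 81.3% under quantile scaling, DESeq2, FPKM and length removal. On FPKM the sign turned for Hsp90aa1 (0.0115 in each of the 3 fits) and Hsp90ab1 (-0.0117, or -0.0116 at a pseudocount of 1). Counts and FPKM differ by the implied length, whose log2 ratio was -0.16 for Hsp90aa1 and 0.11 for Hsp90ab1. Why these lengths differed between libraries was not tested. Signs also turned without 1 library. Hspa1l ran from -0.122 to 0.0275, above 0 without wild-type library 1 or knock-in library 2. Hspa8 ran from -0.0286 to 0.0856, below 0 without either of these, and Hsph1 from -0.0869 to 0.0682, above 0 without wild-type library 3 or knock-in library 1. Hspa2 stayed above 0 in all 16 fits (log2 0.11 to 0.16, adjusted p from 0.105 to 0.715). The germ-cell median ran from -0.104 to 0.0275 without 1 library, and the somatic median from -0.08 to -0.03. The germ-cell share differed by 1.76 percentage points in counts, 0.635 in FPKM and 1.29 to 2.37 without 1 library. Of noncoding transcripts with a member's symbol, 1 (Hspa4) was called by DESeq2 and 1 without the filter, and the number of all transcripts called, 9, was 110 and 129 there, 2 with the replicate block and 15 without knock-in library 3.

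Deviations of same-numbered libraries had small positive correlations (0.14, 0.08 and 0.03), and those of differently numbered libraries ran from -0.12 to 0.05. Whether same-numbered libraries were paired cannot be told from these values. Each wild-type library correlated best with its own number except library 3 (0.05 with knock-in library 2). With the replicate block 178 genes and 0 of the 10 members were called, Hspa2 keeping a log2 fold change of 0.14 (adjusted p = 0.141) and the Hspa4 noncoding transcript -0.36 (adjusted p = 0.336), and Cdc37 was lost (adjusted p = 0.0546). With the length trend removed as well, 111 genes were called, 75.7% of them higher. Depth limits the circles, where the Hspa4 circle had 7 counts against 0.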
